A study of Mus musculus with 12 samples.

Results

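The ATP-binding cassette (ABC) transporters, the organic anion transporting polypeptides (Slco), the bile acid carriers of family Slc10a and the organic ion carriers of family Slc22a were followed in mouse liver after interleukin-6 (IL-6) or interferon gamma (IFN-γ). Every probe set of the array whose annotation gave 1 gene symbol beginning Abca to Abcg, Slco, Slc10a or Slc22a was taken. This gave 47 of the 12488 probe sets, for 42 genes, of which 28 probe sets belonged to the ABC families, 3 to Slco, 6 to Slc10a and 10 to Slc22a. A further probe set of these families carried several symbols and was left out. Of the 47, 37 probe sets, for 35 genes, read above a floor for low signals of 33.0 on at least 2 of the 12 arrays and were tested. Abcb11, the canalicular bile salt pump, Abcg5 and Abcg8, which export sterols, and the liver uptake carriers Slco1a1 and Slco1b2 were not analysed here.

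The 12 arrays, 2 for each of 6 groups, measured total liver RNA taken 4 h after an injection into the peritoneum. Control mice were albumin-cre(-) Socs3(w/fl), which carry no Cre recombinase and 1 floxed Socs3 allele, and received PBS or IL-6. Socs3-deleted mice were albumin-cre(+) Socs3(-/fl), with 1 null and 1 floxed allele, and received PBS or IL-6. The albumin promoter drives Cre in hepatocytes, so other liver cells of these mice keep the floxed allele. Socs3-deleted mice differ from control mice in Cre, the null allele and the hepatocyte deletion at once. The parts of these cannot be told apart. Ifng-null mice were Interferon-gamma-/- and received PBS or IFN-γ, and their labels name no change at Socs3. SOCS3 is the inhibitor that IL-6 signalling induces against itself. Strain, age and dose were not stated in the labels. These also do not say that the arrays of a group came from separate mice, so p-values measure the spread between these arrays, which may be technical. The brighter Socs3 probe set read 117 to 167 on the 4 control arrays and 74.4 to 106 on the 4 Socs3-deleted arrays. The Ifng probe set read at most 7.81, below the floor, on all 12 arrays, so it checked nothing. Array medians lay between 80.6 and 85.7. The 7 measured hepatocyte markers summed to 41566 to 46034 in Socs3-deleted mice after IL-6 and to 49014 to 52959.5 in the same mice after PBS, and none lay below the floor. In control mice the sums were 46404 to 48035 after IL-6 and 48800 to 51515 after PBS. Replicate 2 of control mice after PBS and replicate 2 of Socs3-deleted mice after PBS stood apart, with Prss2, a pancreatic acinar protease, at 651 and 1863 against at most 27.3 on the other arrays. Transporter calls that use them are given without them as well. The erythroid marker Hba-a1 varied too, from 294 to 6389 over the 12 arrays. It was higher on replicate 2 than on replicate 1 of each control and Socs3-deleted group. Alas2, the other erythroid marker measured, read 335 to 930. The part of red cells in the transporter values was not tested.

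Hepatocytes take bile acids, bilirubin and drugs from blood through carriers of their basolateral face, change them chemically, and export them into bile through ABC pumps of the canalicular membrane. Other ABC proteins move cholesterol to lipoproteins, carry fatty acids into peroxisomes or work in mitochondria and lysosomes, and members of subfamilies E and F carry no substrate across a membrane and act on ribosomes. Inflammatory cytokines are known to lower many hepatic bile acid and drug transporters, and IL-6 acts on hepatocytes mainly through the transcription factor STAT3, which binds a palindrome of TTC and GAA.

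The 250 bases before the start site of 4 transporters are shown, from RefSeq on GRCm38.p6 and 5′ to 3′, because 3 of them carry the calls below and the remaining one, Slc10a1, encodes the main bile acid uptake carrier. Capitals mark matches, on either strand, to a STAT palindrome (TTCNNNGAA), a TATA box (TATAAA) and a GC box (GGGCGG).
Slc10a6, chr5:103629404-103629653, minus strand: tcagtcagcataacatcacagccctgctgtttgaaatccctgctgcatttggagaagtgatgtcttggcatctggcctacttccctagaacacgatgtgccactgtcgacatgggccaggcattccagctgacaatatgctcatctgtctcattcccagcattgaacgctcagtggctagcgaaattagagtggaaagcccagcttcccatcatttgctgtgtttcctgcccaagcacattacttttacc
Abca1, chr4:53159896-53160145, minus strand: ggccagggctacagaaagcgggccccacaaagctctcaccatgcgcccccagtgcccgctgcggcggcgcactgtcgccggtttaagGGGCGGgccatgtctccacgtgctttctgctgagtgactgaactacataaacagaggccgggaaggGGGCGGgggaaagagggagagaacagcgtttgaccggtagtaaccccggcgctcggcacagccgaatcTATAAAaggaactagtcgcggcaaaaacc
Abcd3, chr3:121815303-121815552, minus strand: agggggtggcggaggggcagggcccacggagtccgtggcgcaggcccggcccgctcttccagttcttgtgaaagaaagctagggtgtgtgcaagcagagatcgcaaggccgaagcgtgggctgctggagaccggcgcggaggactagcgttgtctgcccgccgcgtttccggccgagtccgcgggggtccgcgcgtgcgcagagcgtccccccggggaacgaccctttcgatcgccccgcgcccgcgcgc
Slc10a1, chr12:80968706-80968955, minus strand: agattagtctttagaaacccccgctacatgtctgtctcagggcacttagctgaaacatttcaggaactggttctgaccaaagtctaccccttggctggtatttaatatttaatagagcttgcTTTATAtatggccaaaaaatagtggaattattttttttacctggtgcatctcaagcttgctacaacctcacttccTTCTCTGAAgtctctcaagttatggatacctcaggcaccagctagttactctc
The Slc10a1 window held a STAT palindrome whose first base lies 53 bases before the start and a TATA box on the reverse strand at 128 bases. The Abca1 window held a TATA box at 29 bases and GC boxes at 163 and 97 bases. None of the 3 motifs was written in the Slc10a6 or Abcd3 window, which says only that these letters are not in these bases. Among the 32851 mouse promoter windows of this length, 7.02% held the STAT palindrome, 12.4% the TATA box and 32.7% the GC box. The 35 windows matched to 30 of the 42 transporter genes held them in 2, 3 and 15 cases, and the STAT palindromes were those of Slc10a1 and Abcc5.

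**Figure D1:**
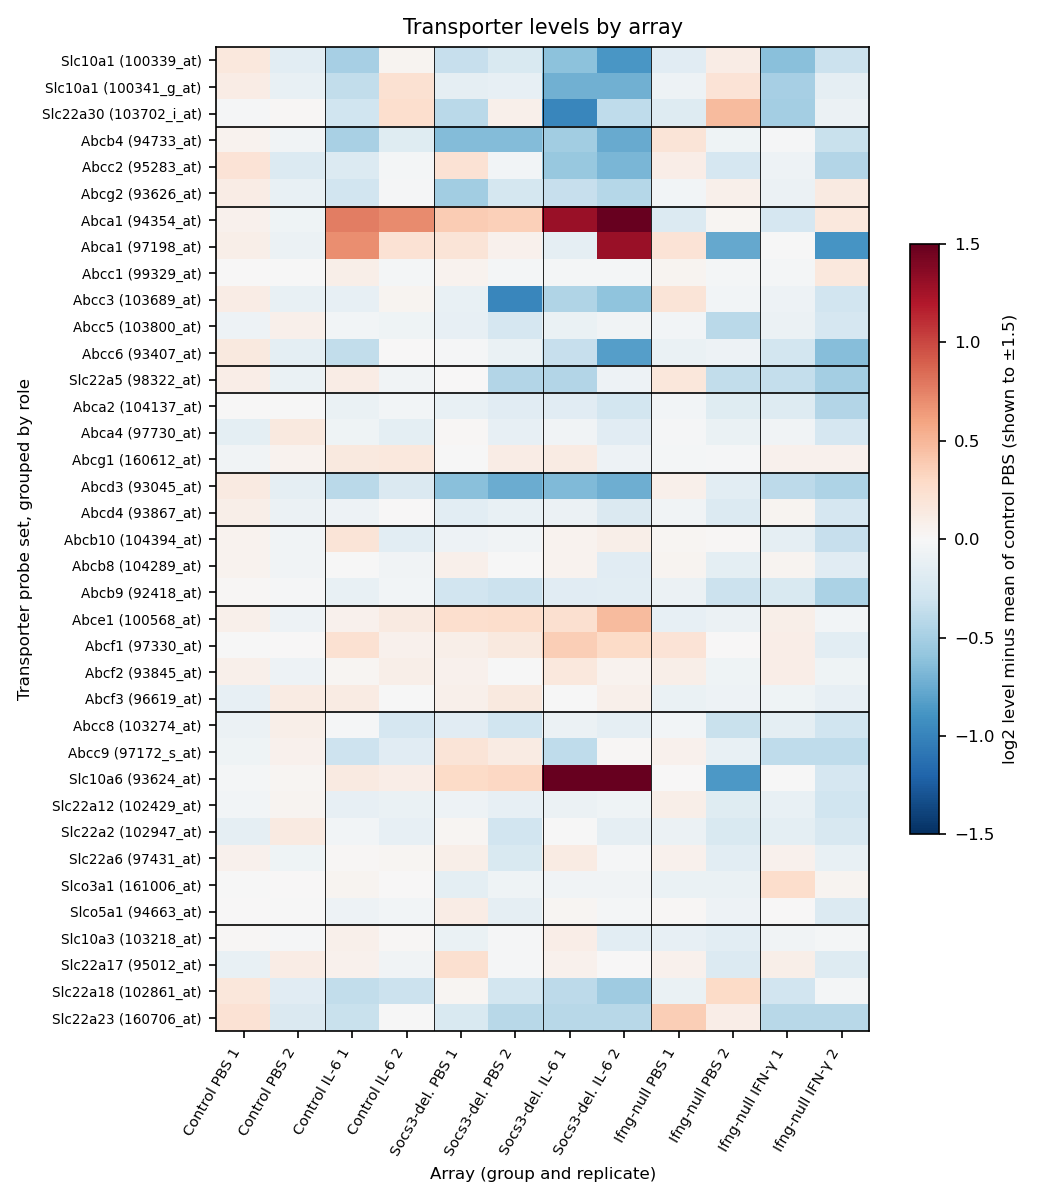
Signal intensity of the tested transporter probe sets on each of the 12 arrays, as the log2 level minus the mean log2 level of control mice after PBS (colour, shown to ±1.5); rows are probe sets grouped by role and columns are arrays. Slc10a6 and the brighter Abca1 probe set stand out as high in Socs3-deleted mice after IL-6.

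Among the transporters tested, 3 genes passed the test in at least 1 comparison. Their calls depended on the processing. They were all lost when no probe set was filtered out for low signal, a fit that takes in probe sets set to the floor on every array. Slc10a6 and Abca1 rose after IL-6 in Socs3-deleted mice, 2 calls among 37 tested probe sets, beside 1.03% of all 9641 tested probe sets called higher there. Slc10a6 was also higher in Socs3-deleted than in control mice after IL-6, 1 call beside 0.861%, and Abca1 rose with IL-6 averaged over both genotypes, 1 call beside 0.913%. Abcd3 was lower in Socs3-deleted mice averaged over both injections, 1 call beside 0.187%. No transporter was called for IL-6 in control mice, for genotype after PBS or for Ifng-null against control mice, where 0% of all probe sets were called, nor after IFN-γ, beside 0.653%, nor for a difference in the IL-6 response between genotypes, beside 0.0415%.

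Slc10a6, the sodium-dependent carrier of sulphated steroids that is best known outside the liver, rose after IL-6 in Socs3-deleted mice. Slc10a6 (chromosome 5) read 112 and 117 in control mice given PBS and 125 and 123 given IL-6, and 139.5 and 141 in Socs3-deleted mice given PBS and 328 and 517 given IL-6. It read 115 and 62.8 in Ifng-null mice given PBS and 114 and 96.0 given IFN-γ. Both Socs3-deleted arrays after IL-6 lay above all 10 other arrays, and the control pairs with PBS and with IL-6 lay close together. The Socs3-deleted means were 140.4 ± 1.22 with PBS and 422 ± 134 with IL-6 (SD, n = 2 each), a 2.93-fold rise by geometric means (log2 1.55 ± 0.27 (SE, 2 arrays against 2), limma adjusted p = 0.0295). After IL-6, Slc10a6 was also 3.32-fold higher in Socs3-deleted than in control mice (log2 1.73 ± 0.27 (SE, 2 arrays against 2), limma adjusted p = 0.0241). The control response to IL-6 was 0.12 on the log2 scale, and the difference between the responses of both genotypes was 1.43 with a 95% interval from 0.57 to 2.30 before adjustment. That difference did not pass the test over all probe sets (limma adjusted p = 0.710). The genotype difference averaged over both injections was 1.01, which missed the threshold (limma adjusted p = 0.0542), as did the average IL-6 response of 0.83 (limma adjusted p = 0.102).

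The Slc10a6 calls depended on single arrays. For the IL-6 response, the limma adjusted p was 0.149 without Socs3-deleted mice after PBS replicate 1, 0.178 without Socs3-deleted mice after PBS replicate 2 and 0.167 without Socs3-deleted mice after IL-6 replicate 2, where the log2 change was 1.22. For the genotype difference after IL-6 it was 0.0948 without control mice after IL-6 replicate 1, 0.199 without control mice after IL-6 replicate 2 and 0.126 without Socs3-deleted mice after IL-6 replicate 2. Without both arrays high in Prss2, the changes were 1.56 (limma adjusted p = 0.289) and 1.73 (limma adjusted p = 0.117), so the sizes held and the calls did not.

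Abca1, which loads cellular cholesterol onto apolipoprotein A-I and so forms high-density lipoprotein, rose after IL-6. Abca1 (chromosome 4) has 2 probe sets, and the brighter one read 377 and 345 in control mice given PBS and 616 and 589 given IL-6, and 470.0 and 462 in Socs3-deleted mice given PBS and 889 and 1050.4 given IL-6. Every IL-6 array lay above the PBS arrays of its own genotype, and the Socs3-deleted pair lay above the control pair after either injection. The Socs3-deleted means were 466 ± 5.33 with PBS and 969.9 ± 114 with IL-6 (SD, n = 2 each), a 2.07-fold rise (log2 1.05 ± 0.15 (SE, 2 arrays against 2), limma adjusted p = 0.0113). The control means were 361 ± 22.5 and 602 ± 19.5, 1.67-fold apart, which did not pass (log2 0.74 ± 0.15 (SE, 2 arrays against 2), limma adjusted p = 0.602). Averaged over both genotypes, the IL-6 response was 1.86-fold (log2 0.90 ± 0.11 (SE, 4 arrays against 4), limma adjusted p = 0.00546). The responses of both genotypes differed by 0.31 on the log2 scale, with an interval from -0.16 to 0.79 (limma adjusted p = 0.999), so no difference in response was detectable. The Socs3-deleted level was 0.68 above the control level after IL-6 (limma adjusted p = 0.0865) and 0.37 above it after PBS (limma adjusted p = 0.951). In Ifng-null mice it read 314 and 368 after PBS and 304 and 403 after IFN-γ, and these pairs overlapped.

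The dimmer Abca1 probe set did not pass in any comparison. It read 296 and 263 in control mice given PBS and 453 and 325 given IL-6, and 319.7 and 293 in Socs3-deleted mice given PBS and 254 and 683 given IL-6. One Socs3-deleted array after IL-6 was the highest of the series and the other lay below both PBS arrays of that genotype. Its IL-6 change was 0.45 in Socs3-deleted mice (limma adjusted p = 0.901) and -0.27 without replicate 2 of the treated pair. In control mice it was 0.46, with both IL-6 arrays above both PBS arrays. The call of the brighter probe set in Socs3-deleted mice was lost, at limma adjusted p values of 0.0655 without Socs3-deleted mice after PBS replicate 1, 0.0860 without Socs3-deleted mice after PBS replicate 2 and 0.0903 without Socs3-deleted mice after IL-6 replicate 2. The averaged call was lost without control mice after PBS replicate 2 (limma adjusted p = 0.0504). Without both arrays high in Prss2 the log2 changes were 1.04 (limma adjusted p = 0.173) and 0.86 (limma adjusted p = 0.177).

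Macrophages also express Abca1, and all 8 macrophage and Kupffer cell markers listed were measured. Their summed intensity was 1464 to 1659 in control mice after PBS, 1640.4 to 1649.8 after IL-6, 1806 to 2094 in Socs3-deleted mice after PBS and 2359 to 2828 after IL-6. No marker of the list lay below the floor on all arrays. Among them only Cd14, the lipopolysaccharide co-receptor, passed the test in Socs3-deleted mice, by log2 1.34 (limma adjusted p = 0.00121). Without Cd14, the other 7 summed to 1402 and 1184 in control mice given PBS and 1312 and 1380.2 given IL-6, and to 1479 and 1783 in Socs3-deleted mice given PBS and 2053 and 1516 given IL-6, where the Socs3-deleted pairs overlapped. Every Socs3-deleted sum of the 7 lay above every control sum. Against control mice after IL-6, 7 of the 8 markers were higher in Socs3-deleted mice. For 6 of the 8 (75%) the pairs did not overlap, beside 17.6% of all probe sets, and 1 was called, beside 0.861%. After PBS all 8 were higher, 4 of them (50%) without overlap, beside 15.6%, and 0 were called, beside 0%. The part of these cells in the Abca1 and Slc10a6 results was not tested. In whole liver, fewer or more cells of a type and less or more RNA per cell cannot be told apart.

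**Figure D2:**
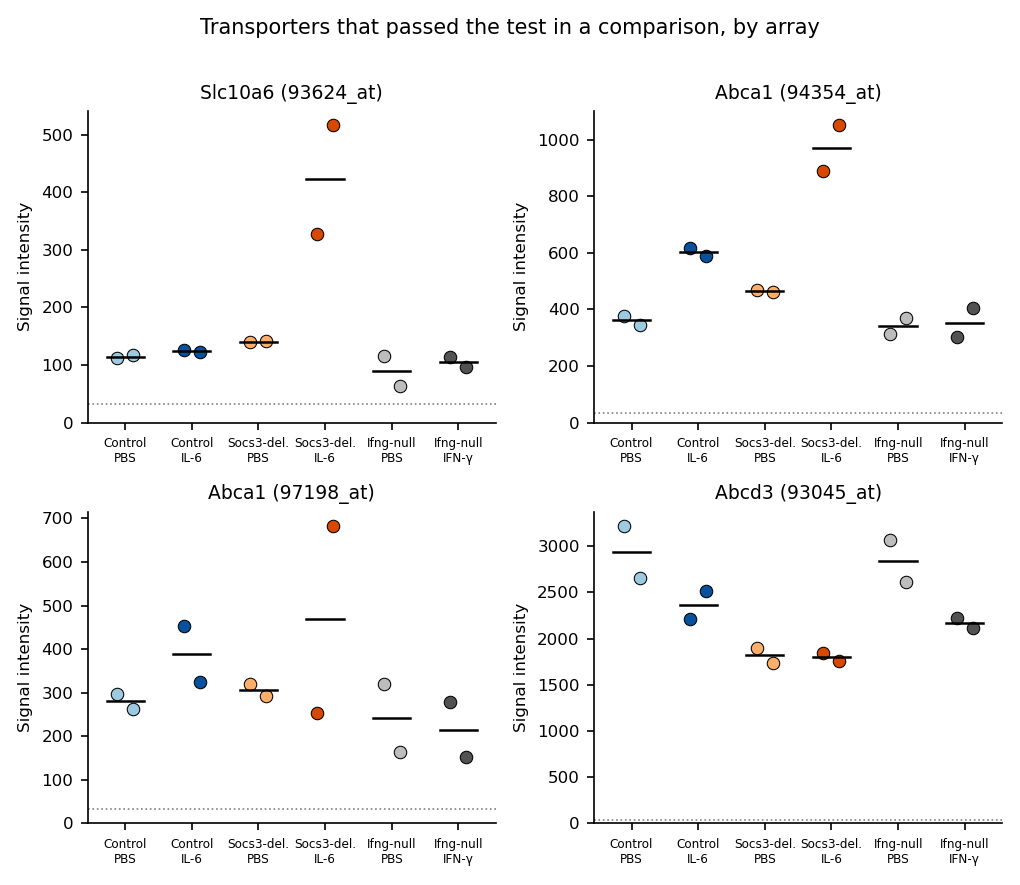
Signal intensity (y axes, from 0) of the 3 transporters that passed a test and of the dimmer Abca1 probe set, by group on the x axes; points are arrays, bars are means of 2 arrays and the dotted line is the floor of 33.0. Slc10a6 and the brighter Abca1 probe set are highest in Socs3-deleted mice after IL-6, the dimmer Abca1 probe set splits its pair there, and Abcd3 is lowest in both Socs3-deleted groups.

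The uptake side of the hepatocyte was represented by Slc10a1, the sodium-taurocholate cotransporting polypeptide that takes up most conjugated bile acids, and by Slc22a30, a further member of the organic ion family. Slc10a1 (chromosome 12) has 3 probe sets. The dimmer of the 2 that were tested read 2492 and 2008 in control mice given PBS and 1583 and 2295 given IL-6, and 1754 and 1907 in Socs3-deleted mice given PBS and 1458 and 1219 given IL-6. The brighter read 2543 and 2162 in control mice given PBS and 1816 and 2756 given IL-6, and 2127 and 2151 in Socs3-deleted mice given PBS and 1427 and 1428 given IL-6. On both, the Socs3-deleted arrays after IL-6 were the lowest of these 4 groups, below their own PBS arrays, while the control pairs overlapped each other. The changes in Socs3-deleted mice were -0.46 and -0.58 on the log2 scale, and neither passed (limma adjusted p = 0.458 and 0.291). After IFN-γ the Ifng-null arrays read 1448 and 1791 against 1989 and 2407 after PBS on the dimmer one (log2 -0.44, limma adjusted p = 0.731). The suffixes of the brighter Slc10a1 probe set and of those for Abcc9, Prss2 and Alas2 mark designs that can also match related transcripts, so their readings may not be of these genes alone. That of the Slc22a30 probe set marks a different non-standard design, and whether it reads this gene alone was not checked. The third Slc10a1 probe set read between 8.11 and 11.7, below the floor throughout.

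Slc22a30 read 528 and 538 in control mice given PBS and 433 and 634 given IL-6, and 404 and 561 in Socs3-deleted mice given PBS and 271 and 410.1 given IL-6. The Socs3-deleted pair after IL-6 lay below the control pair after IL-6 and overlapped its own PBS pair (log2 -0.51, limma adjusted p = 0.643 for the IL-6 response). Of 7 hepatocyte markers measured, 6 were lower after IL-6 in Socs3-deleted mice, beside 48.7% of all tested probe sets, and none was called. The median log2 change of the 7 was -0.39, with a range from -1.80 to 0.055. In control mice 6 of the 7 were also lower after IL-6, beside 53.9% of all tested probe sets, and none was called. The median there was -0.096. The 7 markers summed to 48800 to 51515 in control mice after PBS against 46404 to 48035 after IL-6. In Ifng-null mice they summed to 47455 to 48643 after PBS against 42142 to 43634 after IFN-γ. Their part in the Slc10a1 values was not tested.

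On the canalicular side, 3 pumps were tested and none passed in any comparison. Abcc2, which exports conjugated bilirubin and drug conjugates into bile, read 231 and 175 in control mice given PBS and 175 and 197 given IL-6, and 235 and 196 in Socs3-deleted mice given PBS and 136 and 125 given IL-6. The Socs3-deleted pair after IL-6 was the lowest of the series, with both arrays below all 10 others. The IL-6 change of Abcc2 was -0.72 in Socs3-deleted mice (limma adjusted p = 0.138) against -0.12 in control mice, and the difference of -0.60 between them had an interval from -1.19 to -0.0093 (limma adjusted p = 0.999). Abcb4, the floppase that puts phosphatidylcholine into bile, read 842 and 784 in control mice given PBS and 579.5 and 718 given IL-6, and 518 and 518 in Socs3-deleted mice given PBS and 566 and 481 given IL-6. All 4 Socs3-deleted arrays lay below all 4 control arrays. The genotype difference was -0.65 after PBS (limma adjusted p = 0.547) and -0.48 averaged over both injections (limma adjusted p = 0.101). Abcg2, the breast cancer resistance protein, which exports urate and drug conjugates, read 276 and 238 in control mice given PBS and 210.4 and 253 given IL-6, and 178 and 214 in Socs3-deleted mice given PBS and 201 and 189.9 given IL-6, and after PBS the Socs3-deleted pair lay below the control pair (log2 -0.39, limma adjusted p = 0.951). The multidrug pumps Abcb1a and Abcb1b read at most 19.4 and 8.92, below the floor.

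Besides Abca1, the basolateral exporters were members of subfamily C. Abcc3, which returns glucuronides and bile acids to blood and is raised in cholestasis, read 1091 and 928 in control mice given PBS and 925 and 1034 given IL-6, and 933 and 509 in Socs3-deleted mice given PBS and 738 and 660.0 given IL-6. The second Socs3-deleted array after PBS was the lowest of the series, and it is one of the arrays high in Prss2. The averaged genotype difference of Abcc3 was -0.52 (limma adjusted p = 0.293). It was -0.73 without Socs3-deleted mice after PBS replicate 1, a fit that leaves only that lowest array in its group. Without that lowest array instead, the difference shrank to -0.30. Abcc6, whose loss causes ectopic mineralisation, read 185 and 151 in control mice given PBS and 129 and 168 given IL-6, and 165 and 156 in Socs3-deleted mice given PBS and 131 and 94.0 given IL-6. Its Socs3-deleted arrays after IL-6 lay below its PBS arrays (log2 -0.53, limma adjusted p = 0.332). Abcc5, a carrier of cyclic nucleotides, read 102 and 112 in control mice given PBS and 104 and 102 given IL-6, and 98.3 and 89.8 in Socs3-deleted mice given PBS and 99.9 and 103 given IL-6. Abcc1, the multidrug resistance protein MRP1, read 33.8 and 33.5 in control mice given PBS and 35.7 and 29.2 given IL-6, and 34.9 and 27.97 in Socs3-deleted mice given PBS and 28.4 and 32.8 given IL-6, close to the floor. The groups of Abcc1 overlapped in each IL-6 comparison, and neither gene passed.

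**Figure D3:**
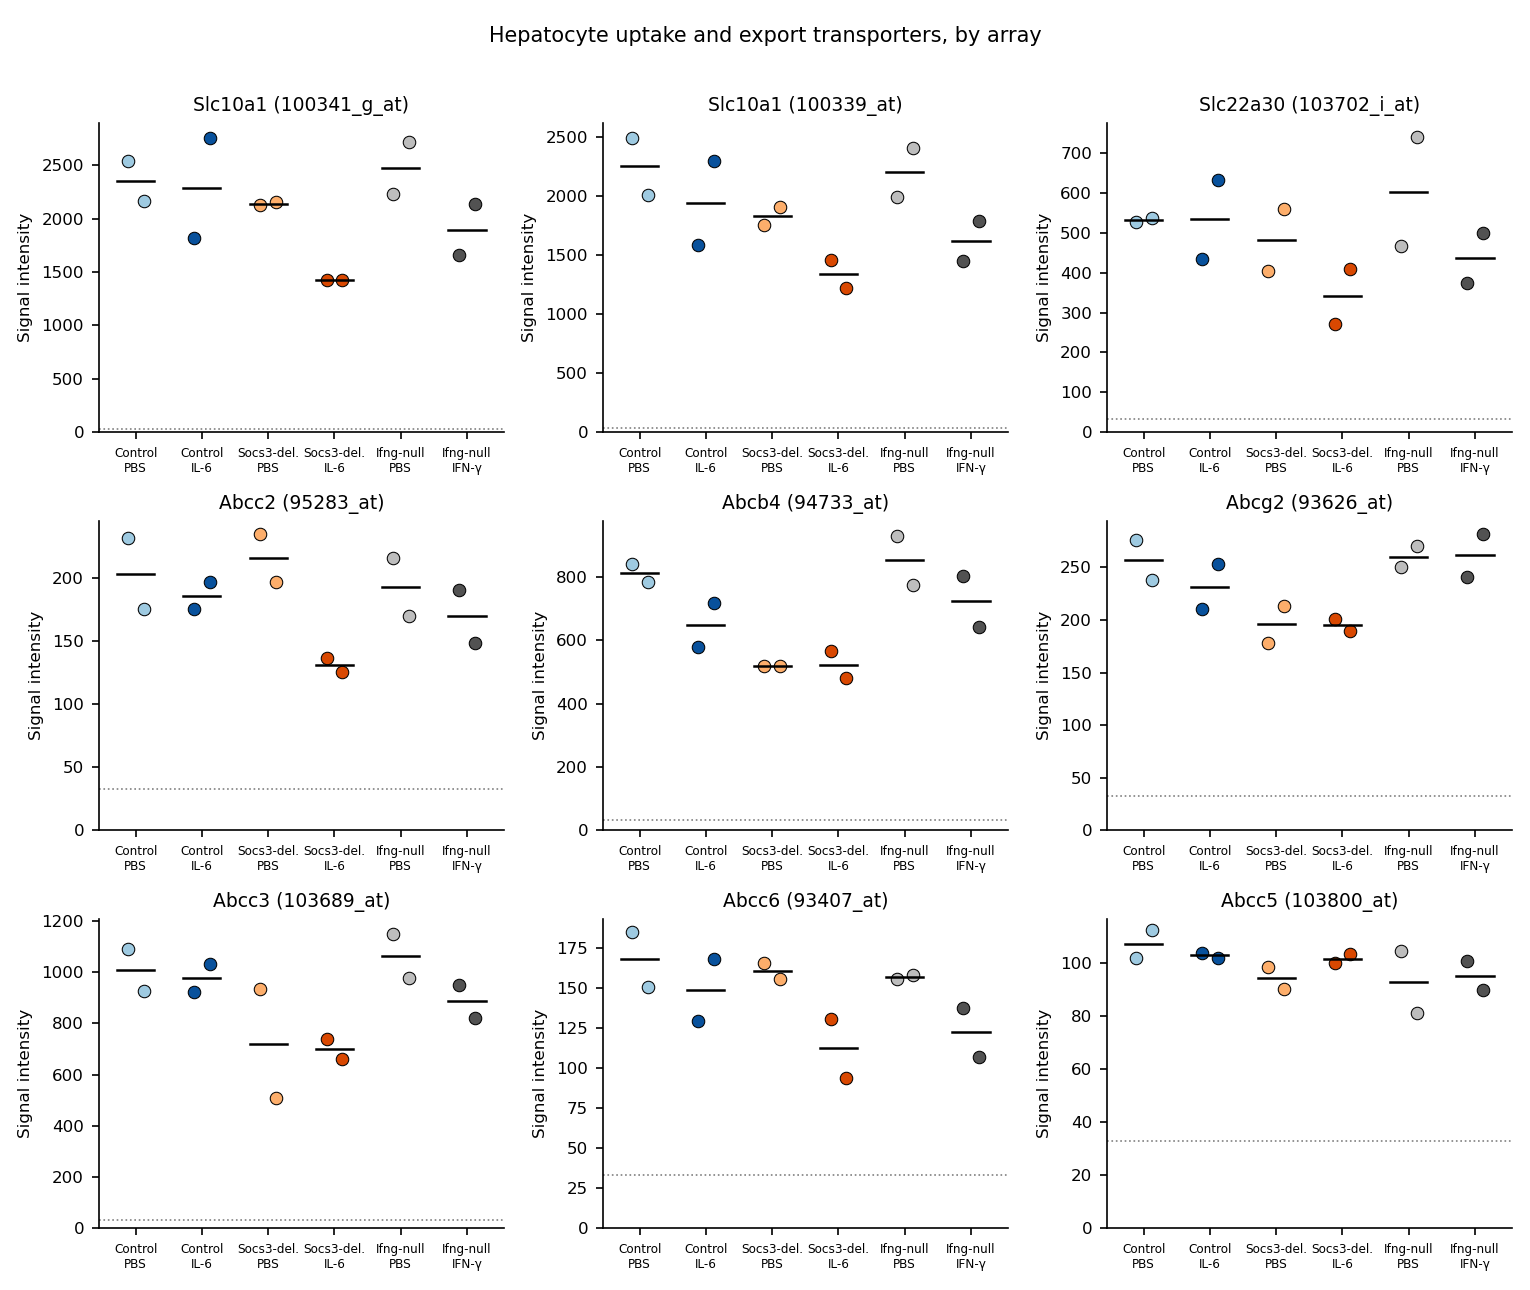
Signal intensity (y axes, from 0) of hepatocyte uptake carriers and exporters by group on the x axes; points are arrays and bars are means of 2 arrays. Slc10a1 and Abcc2 are lowest in Socs3-deleted mice after IL-6 and Abcb4 is lower on the 4 Socs3-deleted arrays than on the 4 control arrays, with no change past the test.

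Abcd3, the peroxisomal membrane protein that imports branched-chain fatty acids and bile acid precursors, was lower in Socs3-deleted mice. Abcd3 (chromosome 3) read 3215 and 2654 in control mice given PBS and 2212 and 2519 given IL-6, and 1899 and 1740.4 in Socs3-deleted mice given PBS and 1843 and 1759.8 given IL-6. All 4 Socs3-deleted arrays lay below all 4 control arrays, and the PBS and IL-6 arrays of Socs3-deleted mice overlapped. Averaged over both injections Abcd3 was 1.45-fold lower in Socs3-deleted than in control mice (log2 -0.54 ± 0.092 (SE, 4 arrays against 4), limma adjusted p = 0.0405). The difference was -0.68 after PBS (limma adjusted p = 0.258) and -0.39 after IL-6 (limma adjusted p = 0.324), and neither passed alone. Leaving out any 1 of the 8 arrays compared ended the call, with limma adjusted p values from 0.0541 to 0.172, and without both arrays high in Prss2 the difference was -0.57 (limma adjusted p = 0.165). In Ifng-null mice Abcd3 read 3068 and 2613 after PBS and 2221 and 2119 after IFN-γ (log2 -0.38, limma adjusted p = 0.479), with both treated arrays below both PBS arrays. Its relative Abcd2 read above the floor on 1 array, at 40.8, and Abcd4, which acts in cobalamin release from lysosomes, read between 33.8 and 43.0.

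The other lipid transporters and the transporters of mitochondria and lysosomes mostly varied little. Abcg1, which exports cholesterol to high-density lipoprotein from macrophages, read 218 and 233 in control mice given PBS and 249.96 and 251 given IL-6, and 225 and 244 in Socs3-deleted mice given PBS and 246 and 214 given IL-6. Its control arrays after IL-6 lay above those after PBS (log2 0.15, limma adjusted p = 1). Abca2, known for lipid handling in oligodendrocytes, read between 366 and 497, and Abca4, the retinoid transporter of photoreceptors, between 67.1 and 88.7. The mitochondrial proteins Abcb8 and Abcb10 read between 194 and 230.3 and between 44.7 and 65.3, and the lysosomal peptide transporter Abcb9 between 86.0 and 121. Abcb9 read 121 and 118 in control mice given PBS and 111 and 116 given IL-6. In Socs3-deleted mice it read 98.0 and 95.7 given PBS and 106 and 107 given IL-6. All 4 Socs3-deleted arrays lay below all 4 control arrays (log2 -0.30 after PBS and -0.20 averaged over both injections). None of these 6 passed in any comparison. Among the ribosome factors, Abce1, which splits ribosomes after termination, read 232 and 209 in control mice given PBS and 230.0 and 241 given IL-6, and 262 and 265 in Socs3-deleted mice given PBS and 260.0 and 307 given IL-6. The 4 Socs3-deleted arrays lay above the 4 control arrays (log2 0.26, limma adjusted p = 0.225 for the averaged genotype difference). Abcf1, which acts in translation initiation, read 439.9 and 445 in control mice given PBS and 519 and 464 given IL-6, and 469 and 492 in Socs3-deleted mice given PBS and 573 and 541 given IL-6, with the IL-6 pair above the PBS pair in both genotypes (log2 0.18, limma adjusted p = 0.594 for the average). The tested Abcf2 probe set and Abcf3 read between 402 and 473 and between 97.2 and 117.

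Among carriers of the Slc22a family, Slc22a5, the carnitine transporter OCTN2, read between 81.9 and 131. Slc22a18, an imprinted gene, read 729 and 574 in control mice given PBS and 502 and 518 given IL-6, and 659.9 and 535 in Socs3-deleted mice given PBS and 491 and 447 given IL-6, and its IL-6 pair lay below its PBS pair in both genotypes (log2 -0.34, limma adjusted p = 0.360 for the average). Slc22a23, an orphan carrier, read between 22.3 and 57.3, partly under the floor. It had the smallest adjusted p of the transporters after IFN-γ, with 57.3 and 47.2 after PBS and 33.1 and 31.7 after IFN-γ (log2 -0.65, limma adjusted p = 0.245, computed with readings under the floor set to it). Carriers best known in kidney read between 101 and 132 for Slc22a12, between 70.1 and 94.2 for Slc22a2 and between 50.3 and 64.1 for Slc22a6, with no call. Slco5a1 read between 37.0 and 46.0, and the tested probe set of Abcc8, the sulphonylurea receptor of potassium channels, between 55.8 and 74.3. Its relative Abcc9 read 41.0 and 45.1 in control mice given PBS and 34.8 and 38.2 given IL-6, and 49.2 and 46.8 in Socs3-deleted mice given PBS and 29.7 and 43.6 given IL-6, with the IL-6 pair below the PBS pair in both genotypes (log2 -0.29, limma adjusted p = 0.306 for the average). Slc10a3 and Slc22a17 read between 159 and 189.9 and between 162 and 219.9. Of the 10 probe sets that were not tested, 9 lay at or below the floor on every array, with a highest reading of 23.42. They included Slc10a2, the intestinal bile acid carrier, Slc22a4, Slc22a21 and Slco6c1.

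Counted over the 37 tested probe sets, IL-6 in control mice left 2 transporters, and 248 probe sets in all, at an unadjusted limma p under 0.05, with 0 called beside 0%. In Socs3-deleted mice 0 transporters were called lower, beside 0.145% of all probe sets, and the response differed between genotypes for 0 beside 0.0415%, with 2 of 37 and 380 of 9641 probe sets at an unadjusted limma p under 0.05. The median log2 change of the 37 was -0.041 in control and 0.0033 in Socs3-deleted mice, and that of all tested probe sets was -0.011 and 0.0016. In control mice 7 transporters (18.9%) were higher and 8 (21.6%) lower with groups that did not overlap, beside 12.6% and 14.3% of all probe sets. In Socs3-deleted mice these numbers were 8 (21.6%) and 6 (16.2%), beside 19% and 21.1%.

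With Socs3 deletion, more of the tested transporters lay lower than higher. After PBS 15 of 37 (40.5%) were lower with groups that did not overlap, beside 17.9% of all probe sets, and 5 were higher, beside 15.6%. After IL-6 16 (43.2%) were lower, beside 22.7%, and 6 were higher, beside 17.6%. After both injections, 10 (27%) were lower in both deleted arrays than in both control arrays of the same injection, beside 6.04%. By the same rule 4 were higher, beside 5.05%. The median log2 difference of the 37 was -0.074 after PBS and -0.057 after IL-6, against -0.016 and -0.013 for all tested probe sets. After PBS 0 were called beside 0%, with 7 of 37 transporters and 402 of 9641 probe sets at an unadjusted limma p under 0.05. These counts describe probe sets of the same arrays and carry no test.

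IFN-γ in Ifng-null mice gave 0 transporter calls, beside 0.653% of all probe sets, with 4 transporters and 668 of 9641 probe sets at an unadjusted limma p under 0.05. There 9 were lower and 4 higher with groups that did not overlap, beside 17% and 9.57%, and the median log2 change was -0.10 against -0.035 for all tested probe sets. Of Ifng-null against control mice, both given PBS, 0 transporters were called beside 0% of all probe sets, and 0 transporters and 297 of 9641 probe sets had an unadjusted limma p under 0.05. The groups did not overlap for 5 transporters that were lower and 0 that were higher, beside 15.1% and 12.6%. The largest of these differences was Abcb9, at 112 and 95.5 against 121 and 118 (log2 -0.21, limma adjusted p = 0.873). Comparisons that share a PBS or IL-6 group share its arrays.

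The Ifng-null arrays of the carriers described above were as follows. The brighter tested Slc10a1 probe set read 2229 and 2713 after PBS and 1657 and 2135 after IFN-γ, and Slc22a30 read 467 and 740.0 after PBS and 374 and 500.1 after IFN-γ. Both Slc10a1 probe sets had their treated pair below their PBS pair, while the Slc22a30 pairs overlapped. Among exporters, Abcc2 read 215 and 169.6 after PBS and 191 and 149 after IFN-γ, Abcb4 931 and 776 after PBS and 804 and 642 after IFN-γ and Abcg2 249.98 and 271 after PBS and 241 and 281 after IFN-γ. Abcc3 read 1151 and 979 after PBS and 951 and 821 after IFN-γ, Abcc6 155 and 158 after PBS and 138 and 107 after IFN-γ, Abcc5 104 and 80.9 after PBS and 101 and 89.6 after IFN-γ and Abcc1 34.5 and 30.6 after PBS and 31.8 and 37.6 after IFN-γ. The pairs of Abcc3 and Abcc6 did not overlap and were lower with IFN-γ (log2 -0.26, limma adjusted p = 1 and log2 -0.37, limma adjusted p = 0.825), and those of the other 5 exporters overlapped. For Abcc2 and Abcb4 the IFN-γ array was nonetheless the lower one of each replicate number (log2 -0.18, limma adjusted p = 1 and log2 -0.24, limma adjusted p = 0.942), though the labels do not say that the numbers pair mice. In the other direction, 3 probe sets had the largest differences upwards among pairs that did not overlap. Slco3a1, an organic anion carrier of many tissues, read 71.2 and 71.4 after PBS and 92.0 and 78.6 after IFN-γ (log2 0.25, limma adjusted p = 0.617). Abce1 read 203 and 207 after PBS and 233 and 214 after IFN-γ and Slc10a3 162 and 159 after PBS and 171 and 173 after IFN-γ, with differences of 0.13 and 0.10 (limma adjusted p = 1 for both). Among the rest, Slc22a18 read 602 and 792 after PBS and 531 and 634 after IFN-γ, Abcf1 512 and 444 after PBS and 475 and 397 after IFN-γ, Abcg1 221 and 223 after PBS and 235 and 236 after IFN-γ and Abcc9 45.0 and 40.0 after PBS and 31.0 and 30.0 after IFN-γ.

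**Figure D4:**
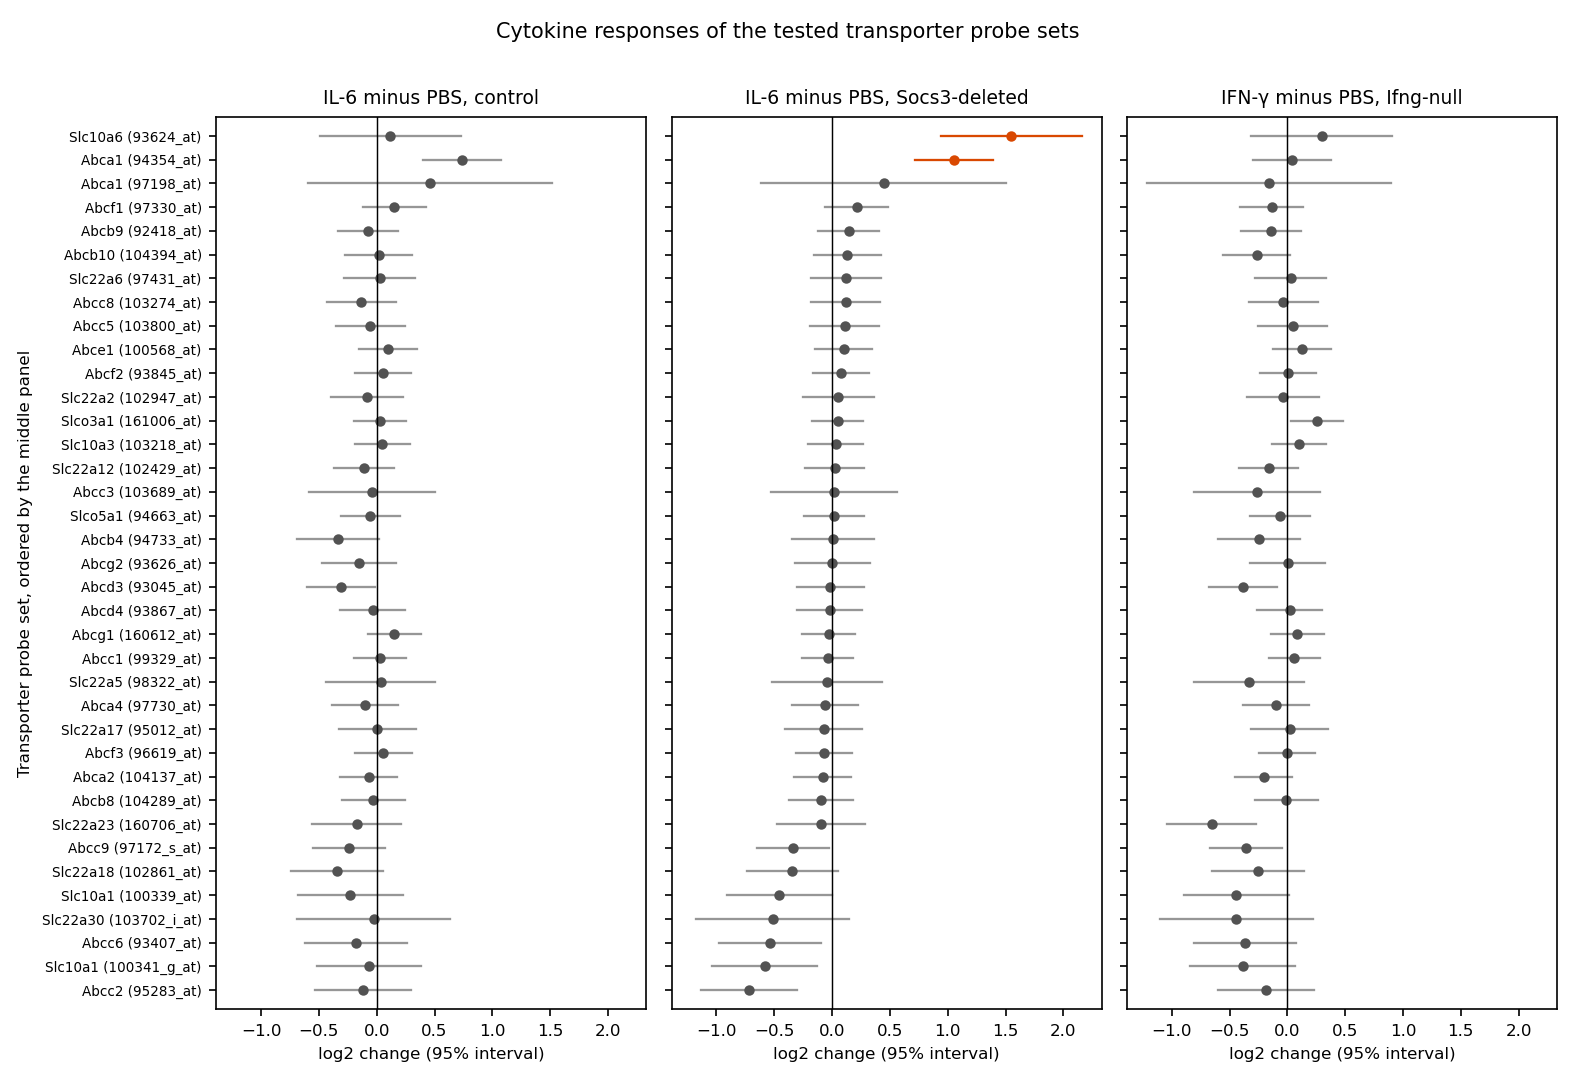
Log2 changes (x axes) of the 37 tested transporter probe sets, listed by gene, in the comparisons named on the panels; bars are 95% intervals of the limma fit before adjustment, and orange marks passed an adjusted p of 0.05. Slc10a6 and the brighter Abca1 probe set are the points far to the right for IL-6 in Socs3-deleted mice, and most intervals include 0.

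Other genes of bile acid handling were taken from a list of 49, of which 36 were measured and tested. Among 10 genes of bile acid synthesis and conjugation, 1 was called lower for Socs3 deletion averaged over both injections, beside 0.187% of all probe sets, and none was called in any other comparison. This was Cyp8b1, the sterol 12α-hydroxylase that sets the share of cholic acid, which read 2001 and 1465 in control mice given PBS and 1329.6 and 1421 given IL-6, and 799 and 1024 in Socs3-deleted mice given PBS and 507 and 591 given IL-6. All 4 Socs3-deleted arrays lay below all 4 control arrays, a 2.18-fold fall averaged over both injections (log2 -1.12 ± 0.19 (SE, 4 arrays against 4), limma adjusted p = 0.0347). The Cyp8b1 call was lost when any 1 of the 8 arrays was left out (limma adjusted p = 0.0676 to 0.151). Without both arrays high in Prss2 the log2 difference was -1.33 (limma adjusted p = 0.143). Cyp7a1, the rate-limiting enzyme of bile acid synthesis, read 310.1 and 119 in control mice given PBS and 59.9 and 246 given IL-6, and 120.4 and 82.1 in Socs3-deleted mice given PBS and 41.6 and 42.2 given IL-6, with a wide spread between the control arrays (log2 -1.25, limma adjusted p = 0.534 for IL-6 in Socs3-deleted mice).

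Of 7 partners of canalicular transporters, 1 was called higher for IL-6 in Socs3-deleted mice, beside 1.03% of all probe sets, and for Socs3-deleted against control mice after IL-6, beside 0.861%. This was Myo5b, a motor that carries vesicles to the canalicular membrane. It read 91.9 and 93.6 in control mice given PBS and 95.7 and 91.1 given IL-6, and 99.3 and 88.3 in Socs3-deleted mice given PBS and 137 and 179 given IL-6, with the Socs3-deleted pair after IL-6 above the other 6 arrays of both genotypes. It read 96.8 and 102 in Ifng-null mice given PBS and 126 and 144 given IFN-γ, and these pairs did not overlap either (log2 0.44, limma adjusted p = 0.412). The rise was 1.67-fold over PBS (log2 0.74 ± 0.14 (SE, 2 arrays against 2), limma adjusted p = 0.0378) and 1.68-fold over control mice after IL-6 (log2 0.75 ± 0.14 (SE, 2 arrays against 2), limma adjusted p = 0.0439). For the rise over PBS, the call was lost at limma adjusted p values of 0.109 without Socs3-deleted mice after PBS replicate 1, 0.256 without Socs3-deleted mice after PBS replicate 2 and 0.169 without Socs3-deleted mice after IL-6 replicate 2. Without both arrays high in Prss2 the log2 difference was 0.66 (limma adjusted p = 0.374). For the difference from control mice, the call was lost at limma adjusted p values of 0.149 without control mice after IL-6 replicate 1, 0.352 without control mice after IL-6 replicate 2 and 0.186 without Socs3-deleted mice after IL-6 replicate 2. None of the 7 was called lower in any comparison. Rdx (radixin), which anchors Abcc2, read 411 and 405 with PBS and 286 and 279 with IL-6 in Socs3-deleted mice, pairs that did not overlap (log2 -0.53, limma adjusted p = 0.196). Pdzk1, a scaffold of membrane transporters, likewise did not overlap and was lower there (log2 -0.56, limma adjusted p = 0.294). Of 16 nuclear receptors and other regulators none passed in any comparison. In Socs3-deleted mice 15 of the 16 were lower after IL-6, with a median of -0.28 on the log2 scale against 0.0016 for all tested probe sets, of which 48.7% were lower. The remaining one, Cebpb, read 1520 and 952 with PBS and 2596 and 1964 with IL-6 in Socs3-deleted mice (log2 0.91). After IL-6 it was 1.63 above control mice on the log2 scale. On the same arrays 6 of 7 hepatocyte markers were lower, with a median of -0.39, and their part in the regulators' values was not tested.

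Tap1, which is built like an ABC transporter and moves peptides into the endoplasmic reticulum for antigen presentation, has a symbol outside the families chosen here. Tap1 read 149 and 127 in control mice given PBS and 341 and 179.9 given IL-6, and 159 and 154 in Socs3-deleted mice given PBS and 789 and 701 given IL-6. It read 143 and 151 in Ifng-null mice given PBS and 985 and 841 given IFN-γ. The treated pairs of Socs3-deleted and of Ifng-null mice lay above all other arrays. It rose 4.76-fold (log2 2.25 ± 0.24 (SE, 2 arrays against 2), limma adjusted p = 0.00321) and 6.20-fold (log2 2.63 ± 0.24 (SE, 2 arrays against 2), limma adjusted p = 0.00149) in these comparisons. Both calls held with any single array of their groups left out. Over all 13 alternative fits, the call in Ifng-null mice was lost in 1 and that in Socs3-deleted mice in 3. Without both arrays high in Prss2 the IL-6 difference in Socs3-deleted mice was 2.23 (limma adjusted p = 0.103). Tap1 was also called higher for IL-6 averaged over genotypes (log2 1.55, limma adjusted p = 0.00459), which became 1.48 (limma adjusted p = 0.154) without those arrays, and for Socs3-deleted against control mice after IL-6 (log2 1.59, limma adjusted p = 0.0222). This last call was lost without the arrays high in Prss2, which lie outside its groups (log2 1.59, limma adjusted p = 0.106), and at limma adjusted p values of 0.0510 without control mice after IL-6 replicate 2, 0.0969 without Socs3-deleted mice after IL-6 replicate 1 and 0.0987 without Socs3-deleted mice after IL-6 replicate 2. Its partners Tap2 and Tapbp, the other members of this list of 3, did not pass in any comparison.

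**Figure D5:**
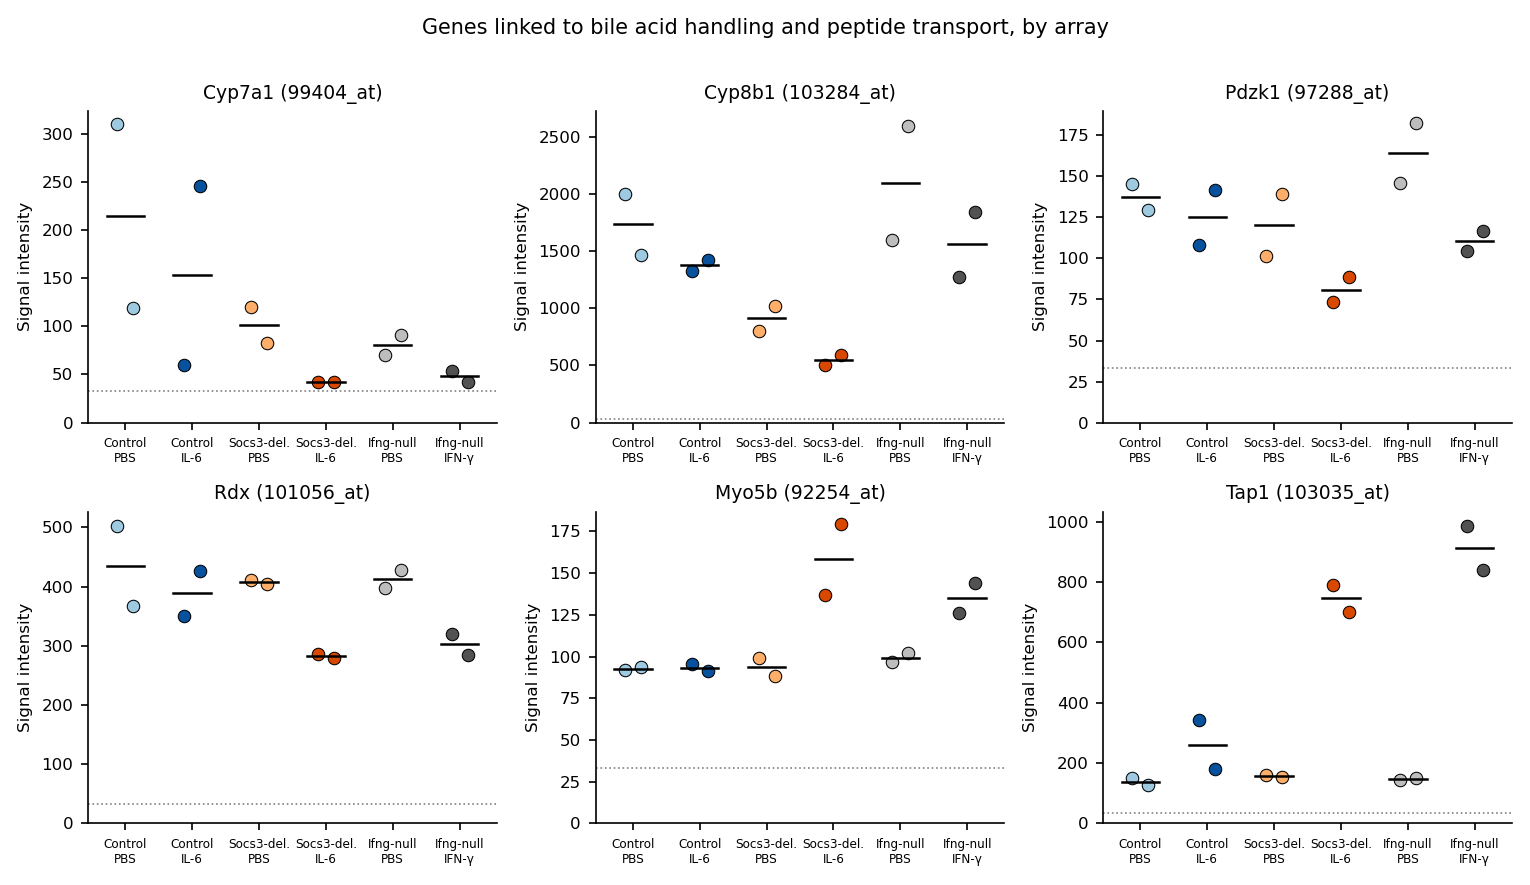
Signal intensity (y axes, from 0) of 6 genes linked to bile acid handling and peptide transport by group on the x axes; points are arrays, bars are means of 2 arrays and the dotted line is the floor of 33.0. Cyp8b1 is lower on the Socs3-deleted arrays, Myo5b has its highest mean in Socs3-deleted mice after IL-6, and Tap1 is high there and after IFN-γ.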

How the data were processed

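Total liver RNA of 12 mouse samples was hybridised to Affymetrix arrays, 1 array a sample and 2 arrays for each of 6 groups taken from the sample titles. The values are 1 signal intensity per probe set as the authors deposited it, on a linear scale. The software, background correction and scaling behind these intensities are not given in the sources used here. Gene symbols came from GEO's platform annotation, and all 47 transporter probe sets matched RefSeq by Entrez identifier with the symbol unchanged. No further normalization was applied. Readings under 33.0, the 25th percentile of all intensities, were set to it, log2 was taken, 66 control probe sets were left out, and probe sets above the floor on at least 2 arrays were tested (9641 of 12488).

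Group means were fitted over all 12 arrays with limma 3.58.1 in R 4.3.3 (lmFit, eBayes; 6 residual and 3.38 prior degrees of freedom), with Benjamini-Hochberg adjustment over all tested probe sets and a threshold of 0.05, for 9 comparisons. The procedure was tested on simulated data. With 2 arrays against 2, an exact permutation test cannot go below p = 0.333, and the number of arrays limits the precision. No array shared its values with another. The members, roles and gene lists were chosen with earlier results of these data known. Members named with every array are those called, the hepatocyte uptake and export carriers that were tested, and the 3 largest rises and falls per comparison among probe sets whose groups did not overlap. Quantile normalization, other floors, no filter, an intensity trend, array weights, a replicate block, fits on only the arrays compared, and leaving out arrays were tried.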

Additional observations from a re-analysis of the deposited data

How the results depend on the processing

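Transporter counts changed as follows. For IL-6 in Socs3-deleted mice, 2 became 0 with no filter, 0 on the compared arrays alone, 0 without the arrays high in Prss2, and 0 to 2 when single arrays were left out. For IL-6 averaged over genotypes, 1 became 2 with a floor at the 50th percentile, 2 with array weights, 0 with no filter, 0 without the arrays high in Prss2, and 0 to 2 with single arrays left out. For Socs3-deleted against control mice after IL-6, 1 became 2 with quantile normalization or array weights, 0 without the arrays high in Prss2, on the compared arrays alone or with no filter, and 0 to 2 with single arrays left out. For the genotype difference averaged over injections, 1 became 3 with quantile normalization or array weights, 2 with a floor at the 10th or 50th percentile, 0 without the arrays high in Prss2, on the compared arrays alone or with no filter, and 0 to 2 with single arrays left out. The other 5 comparisons gave 0 under every alternative run. The fits with no filter adjust over more probe sets. They also bring probe sets set to the floor on every array, which show no spread, into limma's estimate of the spread. The parts of these in the lost calls were not tested. Fits with fewer arrays have fewer degrees of freedom.

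Of 665 alternative values for genes named in a comparison, taken where a transporter differed by at least 0.4 on the log2 scale or another gene was called, 584 kept direction and side of the threshold, 67 lost and 13 gained a call, and 1 reversed, the dimmer Abca1 probe set at -0.27 for IL-6 in Socs3-deleted mice without replicate 2 of the treated pair and 1.16 without replicate 1. Replicate numbers were not said to pair mice, and the deviations of same-numbered arrays correlated between -0.25 and 0.66. The 0.66 was between Ifng-null mice after PBS and after IFN-γ. The next highest was 0.31, between control and Socs3-deleted mice after PBS. With the replicate block the counts were 2 for IL-6 in Socs3-deleted mice, 1 for each of the 3 other comparisons with a call, and 0 elsewhere. The block fits 1 shift between replicate numbers, shared by all 6 groups. Its 0 after IFN-γ therefore does not check a pairing within Ifng-null mice alone. Crossing the numbers of the Ifng-null and control PBS arrays, an alternative chosen after seeing the data, gave 0. Intensities near the floor leave the 10 untested probe sets without a measured change.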

Other observations

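The deviations of Ifng-null arrays of the same replicate number correlated at 0.66 over all tested probe sets, and such arrays resembled each other on some transporters. The dimmer Abca1 probe set read 321 and 279 on replicate 1 after PBS and IFN-γ, and 164 and 151 on replicate 2. Slc10a6 read 115 and 114 on replicate 1 and 62.8 and 96.0 on replicate 2. Slc22a30 was the other way round, at 467 and 374 on replicate 1 and 740.0 and 500.1 on replicate 2.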
